A study of Mus musculus with 50 samples.

Results

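Genes known as fetal hepatocyte or oncofetal genes, several of which return in some liver tumours, were followed in the livers of pregnant mice and of their fetuses after gestational exposure to perfluorinated compounds. The list held 10 genes: Afp, Alb, H19, Igf2, Dlk1, Gpc3, Lin28b, Igf2bp1, Igf2bp2 and Igf2bp3. They were located by gene symbol in the platform annotation, and where a gene had several probes the brightest over the 50 arrays was to be used. Of the 10, 9 were measured, each by 1 probe, out of 30858 genes in all, and Igf2bp2 was not analysed here. The name did not hold for all of them on these arrays: Lin28b was below background on all 25 fetal arrays, and Igf2bp1 was above it on 13 of them and on 0 of the 5 fetal controls. Alb ranked between 2 and 5 among all genes on all 50 arrays, and was not higher in fetal than in maternal control liver. The probe of H19 also carries the symbol of the microRNA in its transcript, Mir675, and that of Igf2bp1 carries Mir3063.

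Whole-liver RNA of CD-1 mice, an outbred stock, was hybridised to 50 Affymetrix whole-transcript arrays at gestational day 17.5. Dams received by daily gavage the vehicle, PFOA (perfluorooctanoic acid) or GenX (a perfluorinated ether acid made to replace it), and fetuses were exposed only through the dam. Fetal groups were vehicle control (5 arrays), PFOA at 1 mg/kg/day (5) and 5 mg/kg/day (6), and GenX at 2 mg/kg/day (5) and 10 mg/kg/day (4), and each of the corresponding maternal groups had 5 arrays. They are named below by compound and dose, as PFOA1, PFOA5, GenX2 and GenX10. Maternal tissue came from the left lateral lobe, and a fetal liver stands for a litter, from which it was drawn at random among the females. The labels call dam and fetal livers matching but name no pairs, so tissues were compared as independent arrays, and p-values measure the spread between these animals. Doses of the compounds differ, so their values are only set side by side.

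Labels and marker genes were checked before the members were read. Source names give another group for fetal PFOA5 replicate 6 (GenX2) and fetal GenX2 replicate 5 (GenX10). Titles were followed, and fits without these arrays are given where they change a call. On 2 arrays labelled female, fetal control replicate 3 and fetal GenX2 replicate 2, the X-inactivation transcript Xist was low. Leaving both out changed no count of called members. All 8 hepatocyte markers lay above background in all 10 groups, at a mean level of 11.7 to 11.8 in the fetal groups and 12.2 to 12.3 in the maternal ones. Ehhadh, a peroxisomal enzyme that PPARα agonists induce, was higher under every exposure, by 3.30 to 3.55 (log2) in fetal liver and by 1.39 to 2.53 in maternal liver.

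Alpha-fetoprotein (Afp) and albumin (Alb) are related serum carrier proteins made by hepatocytes, and after birth the mouse liver silences the first and keeps the second. H19 is a long noncoding RNA expressed from the maternal chromosome and Igf2 a growth factor expressed from the paternal one, and both answer to the same imprinting control region. Dlk1 is an imprinted surface protein of hepatoblasts, the progenitors of hepatocytes, and Gpc3 (glypican-3) is a cell-surface proteoglycan. Lin28b blocks the maturation of let-7 microRNAs, and the Igf2bp proteins bind Igf2 and other messenger RNAs.

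Alb lies at chr5:90460870-90476602 and Afp at chr5:90490714-90508907 on the RefSeq annotation of GRCm38.p6, 14111 bases apart and on the plus strand. The promoter windows of these neighbours are shown because fetal and maternal levels part for one and hardly for the other. Each window runs from 250 bases before the annotated start to 50 after it, and capitals mark the core of a site for the hepatocyte factor HNF1 (GTTAAT) and a TATA box (TATAAA).
Alb, chr5:90460620-90460919: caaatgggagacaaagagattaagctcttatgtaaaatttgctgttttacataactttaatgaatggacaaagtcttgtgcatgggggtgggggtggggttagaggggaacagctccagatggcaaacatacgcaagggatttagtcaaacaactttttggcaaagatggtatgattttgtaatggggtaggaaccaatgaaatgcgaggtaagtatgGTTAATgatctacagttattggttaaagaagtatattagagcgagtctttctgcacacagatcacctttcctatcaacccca
Afp, chr5:90490464-90490763: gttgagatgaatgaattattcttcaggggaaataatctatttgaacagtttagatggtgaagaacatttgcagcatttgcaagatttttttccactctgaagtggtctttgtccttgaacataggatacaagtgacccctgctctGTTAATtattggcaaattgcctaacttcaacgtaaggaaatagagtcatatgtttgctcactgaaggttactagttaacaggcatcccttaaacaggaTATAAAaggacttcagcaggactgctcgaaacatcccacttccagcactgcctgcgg

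RefSeq windows were at hand for 8 of the 10 listed genes, Igf2bp2 included, and numbered 11. Searched on both strands, GTTAAT occurred in the windows of 2 of the 8 genes, Alb and Afp. Its first base was at −32 in Alb and −105 in Afp relative to the annotated start. Of 32851 windows of the same length, 7.10% held it. TATAAA occurred in the window of Afp alone among the 8 genes, with its first base at −7 from the annotated start, and in 13.6% of all windows. CCAAT occurred in the windows of 6 of the 8 genes (Afp, Alb, Gpc3, Igf2, Igf2bp3 and Lin28b) and in 37.4% of all windows. These matches describe letters in a window placed by the annotated start, and neither binding nor the start in use was measured.

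H19 lies at chr7:142575530-142578146 and Igf2 at chr7:142650768-142666816, 72621 bases apart. The H19 transcript contains the microRNA miR-675, whose mature arms are printed from RefSeq with the seed (bases 2 to 8) in capitals, because the H19 probe is annotated to both. Mature microRNA levels were not measured here.
mmu-miR-675-5p: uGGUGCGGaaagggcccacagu
mmu-miR-675-3p: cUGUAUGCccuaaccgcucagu
Dlk1 lies at chr12:109452485-109463336, Gpc3 at chrX:52272426-52613974, Lin28b at chr10:45376617-45486314, Igf2bp1 at chr11:95957163-96005944 and Igf2bp3 at chr6:49085218-49215469.

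Unexposed fetal liver was first set against unexposed maternal liver. All 9 genes passed limma at an adjusted p under 0.05, 8 higher and 1 lower, where 62.2% of all genes passed (20.1% higher and 42.1% lower), so the count of 9 stands on a large background. The median log2 difference was 2.05 over the 9 genes and −0.13 over all genes. In bulk tissue, fewer cells of a type and less RNA per cell cannot be told apart.

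Of the serum proteins, Afp separated the tissues most widely. Its log2 signal was 13.00, 13.06, 13.07, 12.86 and 12.93 in fetal control livers, against 6.94, 6.49, 6.52, 6.05 and 7.56 in maternal control livers. The groups were far apart, and no maternal value exceeded the background of its array, taken here as the 95th percentile of its negative control features. A group with no array above that level is called dim. The log2 difference was 6.27 ± 0.15 (SE, adjusted p = 5.38e-34), or at least 41.4-fold with each maternal array set no lower than its background. On fetal arrays Afp ranked between 8 and 20 among all genes, near the top of the signal range.

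Alb was near the top of the signal range in both tissues. It had 13.25, 13.36, 13.38, 13.28 and 13.28 in fetal control livers, against 13.41, 13.45, 13.42, 13.45 and 13.53 in maternal control livers. The lowest maternal value stood above the highest fetal one, and the difference was −0.14 ± 0.04 (adjusted p = 0.00366), a size that cannot be read as an exact fold there. That call was lost after a repeated quantile normalization (−0.02, adjusted p = 0.687) and after median centring (−0.08, adjusted p = 0.244). Alb ranked between 2 and 5 on all 50 arrays, and the brightest feature of any array was at 13.80.

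The imprinted genes H19, Igf2 and Dlk1 were also higher in fetal liver. H19 had 12.59, 12.75, 12.81, 12.76 and 12.67 in fetal control livers, against 8.76, 7.84, 8.05, 7.84 and 8.10 in maternal control livers. The log2 difference was 4.60 ± 0.10 (adjusted p = 6.67e-36). Igf2 had 11.37, 11.33, 11.35, 11.34 and 11.41, against 7.67, 7.60, 8.54, 7.55 and 7.21 in maternal control livers, a difference of 3.65 ± 0.13 (adjusted p = 1.35e-26). Only 3 of the 5 maternal control values of Igf2 were above background, so no exact fold is given. For both genes the fetal values were tightly grouped and the maternal ones spread widely, with maternal replicate 1 highest in H19 and replicate 3 highest in Igf2. H19 ranked between 19 and 70 on the fetal arrays, also near the top of the range, so no exact fold is given for it either. Dlk1 had 9.79, 9.47, 9.38, 9.42 and 9.49 in fetal control livers, against 7.62, 7.47, 7.43, 7.45 and 7.33 in maternal control livers, where no array rose above background. Its difference was 2.05 ± 0.10 (at least 3.73-fold, adjusted p = 3.29e-21).

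Among the growth regulator and the RNA-binding proteins, Gpc3 differed most. It had 10.76, 10.95, 11.00, 10.77 and 10.62 in fetal control livers, against 6.12, 6.22, 5.84, 6.05 and 6.32 in maternal control livers, all of the latter below background. The difference was 4.71 ± 0.12 (at least 9.24-fold, adjusted p = 1.67e-33). Igf2bp3 had 8.16, 8.35, 8.27, 8.35 and 8.10 in fetal control livers, against 6.39, 6.36, 6.27, 6.54 and 6.34 in maternal control livers, again with all maternal arrays dim. It was higher by 1.87 ± 0.08 (at least 1.55-fold, adjusted p = 1.35e-24).

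Igf2bp1 and Lin28b were below background on every array of both control groups, so their differences have no exact fold. Igf2bp1 had 7.82, 7.69, 7.40, 7.60 and 7.54 in fetal control livers, against 6.58, 6.43, 6.43, 6.58 and 6.28 in maternal control livers, and the signals differed by 1.15 ± 0.11 (adjusted p = 1.31e-12). Lin28b had 5.13, 5.46, 5.19, 4.81 and 4.98, against 4.54, 4.65, 4.66, 4.78 and 4.55 in maternal control livers, with a difference of 0.47 ± 0.12 (adjusted p = 0.000811). Lin28b stayed below the control percentile on all 50 arrays, and Igf2bp1 rose above it on 13 of the 25 fetal arrays and on none of the 25 maternal ones.

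**Figure D1:**
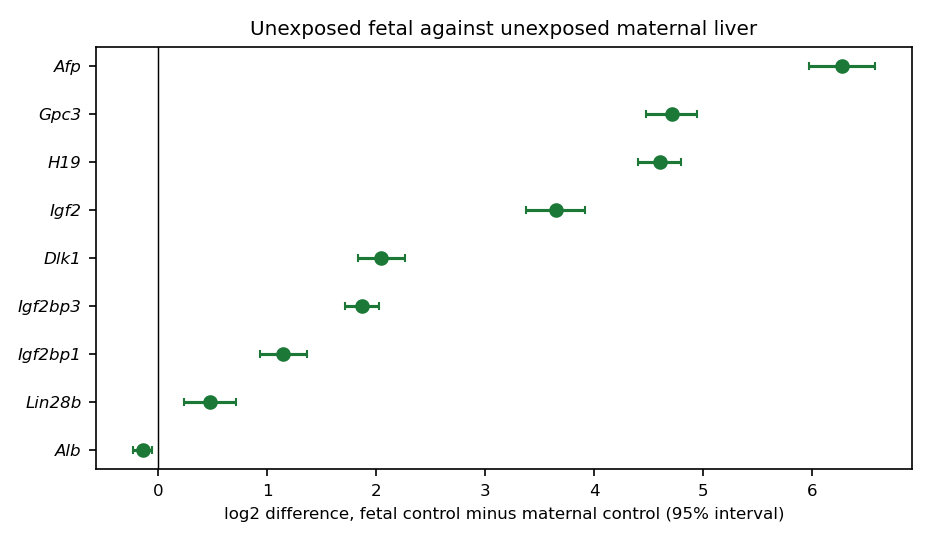
Log2 difference of fetal control minus maternal control liver for the 9 measured genes, with points for the limma estimate and bars for its 95% interval (n = 5 arrays each). Afp lies furthest to the right at 6.27, and Alb is the only gene left of 0, at −0.14.

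Across all 10 groups the tissue set the order of levels. The fetal arrays ran from 12.84 to 13.07 in Afp (median 12.96), against 5.70 to 7.56 (median 6.14) on the maternal arrays. H19 ran from 12.51 to 12.83 (median 12.73), against 7.33 to 8.76 (median 7.63). Igf2 ran from 11.29 to 11.54 (median 11.38), against 6.69 to 8.54 (median 7.03). The ranges of the 25 fetal and 25 maternal arrays also lay apart in Dlk1, Gpc3, Igf2bp1 and Igf2bp3, and overlapped in Alb and Lin28b. With the groups ordered by mean level, the arrays of neighbouring groups overlapped in all 9 genes, except at the step from the lowest fetal to the highest maternal group in the 7 genes whose tissues lay apart.

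**Figure D2:**
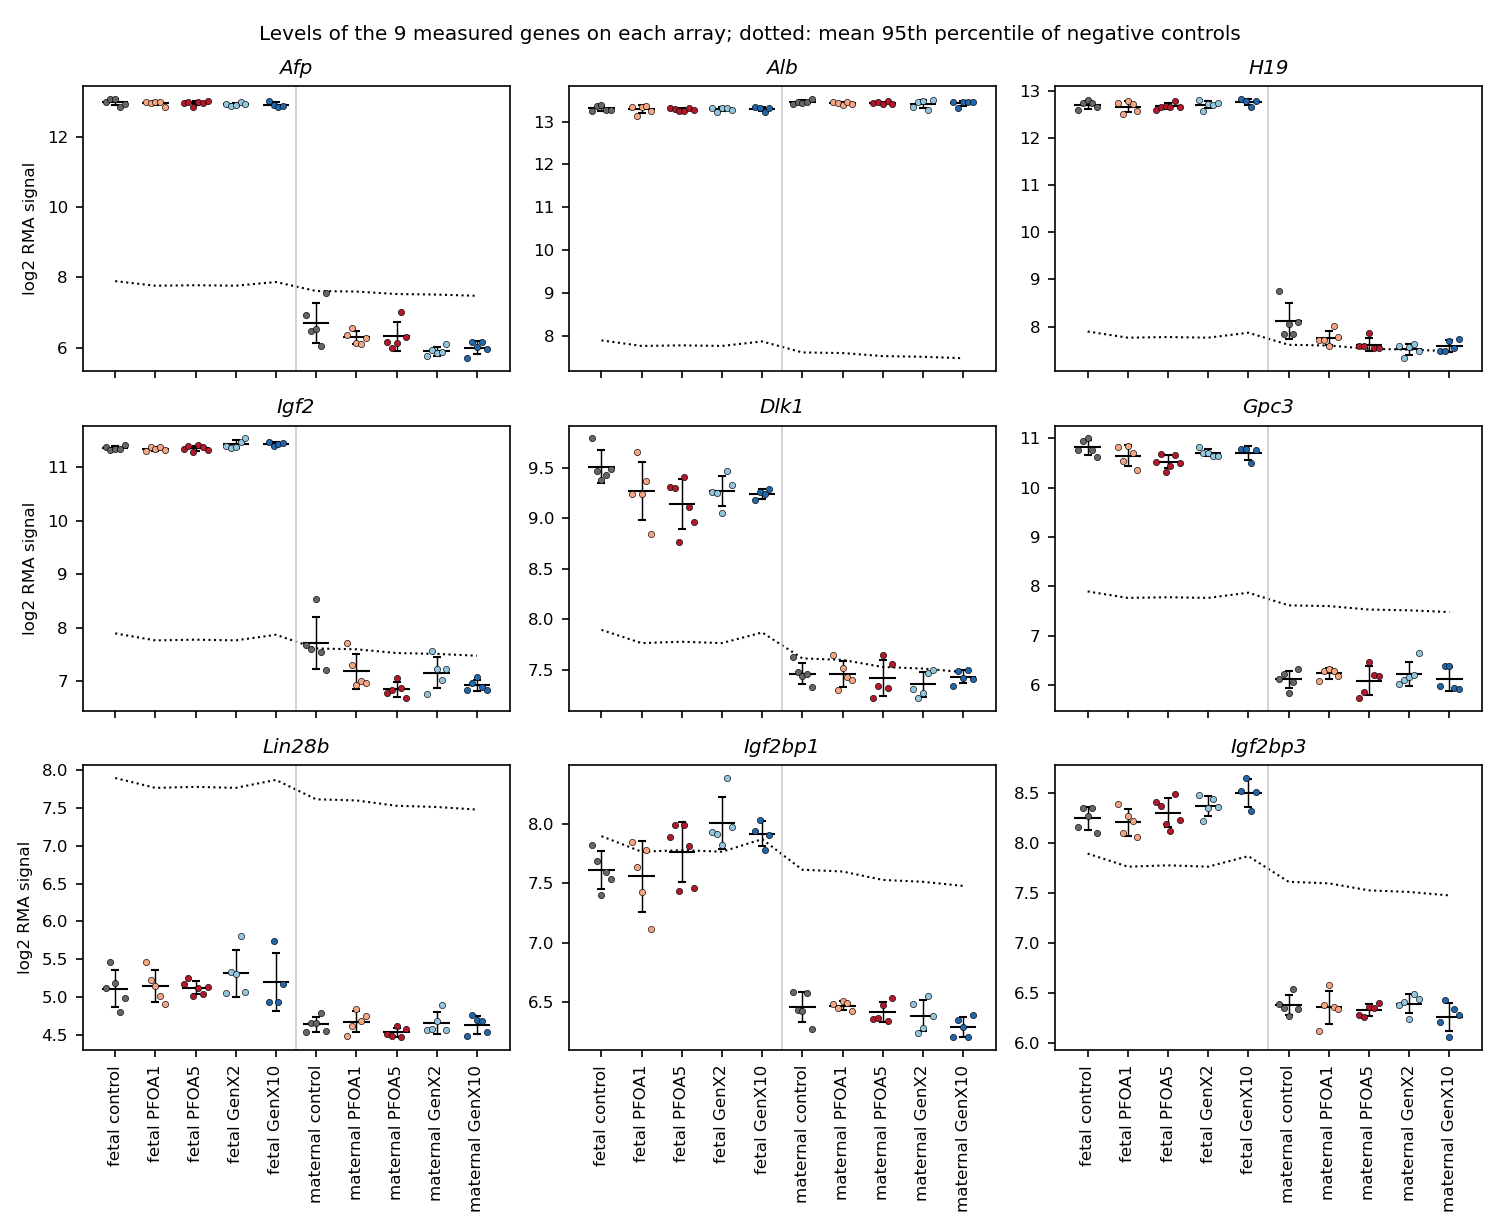
Log2 RMA signal of each array in the 10 groups, 1 panel per gene, with fetal groups on the left and maternal groups on the right, bars for mean ± SD, and a dotted line for the mean 95th percentile of the negative controls. Fetal Afp, H19, Igf2 and Gpc3 form flat bands far above the line, and Lin28b lies below it in every group.

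Related genes put these differences in context, beside the 20.1% of all genes called higher and the 42.1% called lower. Of the 13 measured members of the albumin family and its liver transcription factors, 1 was higher and 10 were lower in fetal control than in maternal control liver (median −0.56, against −0.13 over all genes). Afm (afamin), another albumin relative, was at 9.27 in fetal control and 11.06 in maternal control liver, lower by 1.79 ± 0.15 on the log2 scale. Zbtb20 and Zhx2, known repressors of Afp in the mouse liver, were lower in signal, at 6.49 and 6.98 in fetal control, against 7.31 and 7.65 in maternal control liver. Zbtb20 was dim in both tissues and Zhx2 in the fetus.

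Imprinted growth genes were mostly higher in fetal liver, 14 of 20 measured higher and 4 lower (median 0.74). Grb10, an adaptor that dampens insulin and IGF signalling, was higher by 4.64 (at least 11.2-fold), Mest by 1.88 (at least 1.65-fold) and Cdkn1c, a cell cycle inhibitor, by 2.58. Of the 15 receptors, binding proteins and glypicans of the IGF system, 3 were higher and 8 lower (median −0.17). Igfals and Igf1, which form the circulating IGF complex of adult life, were at 5.73 and 6.37 in fetal control, against 9.25 and 9.08 in maternal control liver, and both were dim in the fetus. Igf1r, the receptor through which Igf2 signals, was higher by 0.93 but dim in both.

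In the LIN28 and let-7 axis, 8 of 14 genes were higher and 2 lower (median 0.20), among them the let-7 targets Nras (1.00 ± 0.07), Cdc25a (1.71) and Myc (1.11). Of 20 other hepatoblast and fetal liver genes, 8 were higher and 6 lower (median 0.20). Cd24a, a surface protein of hepatoblasts and of blood cells, was at 12.46 in fetal control and 6.25 in maternal control liver (at least 28.8-fold higher), and Tspan8 and Pkm, the pyruvate kinase of growing tissue, were higher by 2.95 and 1.39. None of 19 mature hepatocyte genes was higher and 15 were lower (median −2.62). Tdo2, which degrades tryptophan, was lower by at least 12.9-fold, the cytochrome P450 Cyp1a2 by at least 13.7-fold and the glucuronosyltransferase Ugt2b1 by at least 4.51-fold.

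Markers of other cells moved with the tissue as well. In fetal control liver all 14 erythroid precursor markers, all 9 granulocyte markers, all 4 megakaryocyte markers and all 9 proliferation markers were higher, as were 8 of 12 macrophage markers (2 lower). The mean level of the erythroid list ran from 9.34 to 9.69 in fetal control and from 6.27 to 6.37 in maternal control liver, with 13 and 1 of the 14 above background. The proliferation list ran from 9.03 to 9.53 in fetal control and from 6.13 to 6.90 in maternal control liver. Of 8 hepatocyte markers 5 were lower. Stellate and endothelial markers were each 4 higher and 1 lower, of 9 and 8, and no cholangiocyte marker of 5 passed. Their part in the members' differences was not tested.

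Some exposures of the dam were followed by lower signals of Afp, H19 or Igf2 in maternal liver, with exposed values close to or below background. Under PFOA1, 0 of the 9 genes passed limma (3 at an unadjusted p under 0.05), where 0.0324% of all genes passed. Under PFOA5 2 genes were lower (19.9% of all genes passed, 9.04% lower), under GenX2 2 were lower (3.38%, 0.94% lower) and under GenX10 3 were lower (13.8%, 6.21% lower). No member was called higher in any of the 4 comparisons, which share the 5 control livers. The median log2 difference of the 9 genes was −0.05 with PFOA5, −0.07 with GenX2 and −0.11 with GenX10, against −0.05, −0.03 and −0.05 over all genes.

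H19 was the member that passed in 3 of the 4. It had 7.71, 7.72, 7.59, 8.01 and 7.77 in PFOA1, 7.58, 7.58, 7.85, 7.54 and 7.54 in PFOA5, 7.59, 7.33, 7.57, 7.63 and 7.48 in GenX2 and 7.47, 7.48, 7.69, 7.54 and 7.74 in GenX10 livers, against 8.76, 7.84, 8.05, 7.84 and 8.10 in control livers. No GenX2 or GenX10 value reached the control range, and 1 PFOA5 value entered it. The exposed values lay close to background, which 4 of 5 exceeded in PFOA1, PFOA5 and GenX2, and 3 of 5 in GenX10, against 5 of 5 in control livers, so no exact fold is given. The signal of H19 fell by 0.50 ± 0.12 on the log2 scale with PFOA5 (adjusted p = 0.00566), by 0.60 ± 0.12 with GenX2 (adjusted p = 0.00497) and by 0.53 ± 0.12 with GenX10 (adjusted p = 0.00512). The difference with PFOA1 was −0.36 ± 0.12 (adjusted p = 0.712). Without control replicate 1, the brightest, the 3 differences were −0.34, −0.44 and −0.37, and each still passed. With only the exposed and control groups in the fit, the GenX2 call was lost (adjusted p = 0.067).

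Igf2 passed under the higher doses. It had 7.71, 7.31, 6.93, 7.01 and 6.96 in PFOA1, 6.78, 6.83, 7.06, 6.87 and 6.69 in PFOA5, 6.77, 7.56, 7.23, 7.03 and 7.22 in GenX2 and 6.84, 6.97, 7.09, 6.89 and 6.84 in GenX10 livers, against 7.67, 7.60, 8.54, 7.55 and 7.21 in control livers. All PFOA5 and GenX10 values lay below the lowest control value and below background. The difference was −0.87 ± 0.18 with PFOA5 (at least 1.14-fold lower, adjusted p = 0.00112) and −0.79 ± 0.18 with GenX10 (at least 1.18-fold lower, adjusted p = 0.0043). With GenX2 it was −0.55 ± 0.18 (adjusted p = 0.0945, and −0.68 with adjusted p = 0.0341 without control replicate 5), and with PFOA1 −0.53 ± 0.18 (adjusted p = 0.652).

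Afp signals were below background on all 25 maternal arrays, so the calls are differences between dim signals. It had 6.36, 6.55, 6.14, 6.12 and 6.28 in PFOA1, 6.16, 5.99, 6.13, 7.03 and 6.32 in PFOA5, 5.75, 5.93, 5.84, 5.88 and 6.10 in GenX2 and 5.70, 6.17, 6.02, 6.16 and 5.97 in GenX10 livers, against 6.94, 6.49, 6.52, 6.05 and 7.56 in control livers. Control replicate 5 stood highest, and the other 4 control values lay within the pooled range of the exposed ones, which reached 7.03 in PFOA5 replicate 4. The GenX2 values ran from 5.75 to 6.10 and the GenX10 values from 5.70 to 6.17. Of the control values, 6.05 alone lay within those ranges. The signal fell by 0.81 ± 0.20 with GenX2 (adjusted p = 0.0198) and by 0.71 ± 0.20 with GenX10 (adjusted p = 0.0198), against −0.42 (adjusted p = 0.992) with PFOA1 and −0.39 (adjusted p = 0.17) with PFOA5. The GenX2 call was lost without control replicate 1 (−0.75, adjusted p = 0.0539), control replicate 5 (−0.60, adjusted p = 0.0576) or GenX2 replicate 1 (−0.77, adjusted p = 0.0578), or with only those groups in the fit (adjusted p = 0.0841), and the GenX10 call without control replicate 5 (−0.49, adjusted p = 0.0599) or GenX10 replicate 1 (−0.63, adjusted p = 0.0686). With PFOA5 the signal passed without control replicate 4 (−0.55, adjusted p = 0.0466) or PFOA5 replicate 4 (−0.56, adjusted p = 0.0437).

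The other members gave no call in maternal liver. Alb differed from control by −0.04 to −0.02 in the 4 exposed groups, and the 95% intervals of these differences lay between −0.14 and 0.08. Dlk1, at 7.22 to 7.65 on the 25 maternal arrays, was above background on 4 of them. Gpc3, Lin28b, Igf2bp1 and Igf2bp3 were dim on all maternal arrays. Igf2bp1 differed by −0.17 with GenX10 (adjusted p = 0.0822, and −0.21 with adjusted p = 0.0329 without control replicate 5).

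**Figure D3:**
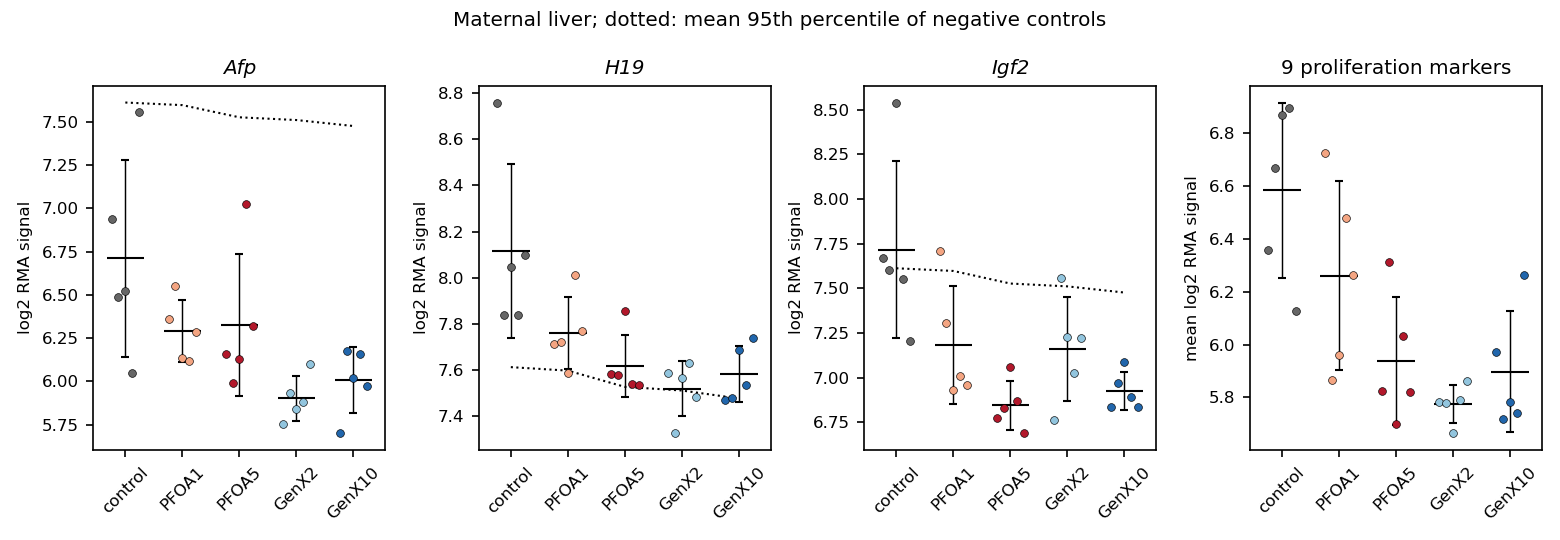
Log2 RMA signal of Afp, H19 and Igf2 on the maternal arrays by group, with the mean level of 9 proliferation markers at the right, bars for mean ± SD (n = 5 arrays) and a dotted line for the mean 95th percentile of the negative controls. Control livers hold the highest value in all 4 panels, and Afp lies below the line on every array.

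Signals of proliferation markers were also lower in exposed maternal liver, but most of these markers were below background. Of 9 measured, 0 passed under PFOA1, and 8, 8 and 9 were lower under PFOA5, GenX2 and GenX10, where 9.04%, 0.94% and 6.21% of all genes were lower. Above background on any array were 2 of the 9 in control, 2 in PFOA1, 0 in PFOA5, 0 in GenX2 and 1 in GenX10 livers. The mean level of the 9 per array ran from 5.86 to 6.73 in PFOA1, 5.70 to 6.31 in PFOA5, 5.66 to 5.86 in GenX2 and 5.72 to 6.27 in GenX10 livers, against 6.13 to 6.90 in control livers. Mki67, the antigen of cycling cells, was at 6.04, 5.59 and 5.97 under PFOA5, GenX2 and GenX10, where it was dim, against 7.27 in control liver. Macrophage markers ran the other way, with 5 of 12 higher under PFOA5, 3 of 12 under GenX10 and 0 under PFOA1 and GenX2. In either direction, 19.9% of all genes passed under PFOA5 and 13.8% under GenX10. Over the 25 maternal arrays, with group means removed, the Pearson r with the proliferation level was −0.46 for Afp, −0.16 for H19 and 0.34 for Igf2. With the granulocyte level it was 0.56 for Afp, 0.25 for H19 and 0.05 for Igf2. However, 0 of 9 granulocyte markers were above background in any maternal group. The value for Afp therefore relates dim signals to each other. With the macrophage level r was −0.24 for Afp, −0.41 for H19 and −0.14 for Igf2. These points share arrays and normalization, and the part of these cells in the members' calls was not tested.

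Related genes also passed in maternal liver, where 19.9%, 3.38% and 13.8% of all genes passed under PFOA5, GenX2 and GenX10 (9.04%, 0.94% and 6.21% lower). Of 20 imprinted growth genes, 5 were higher and 2 lower under PFOA5, 1 and 2 under GenX2, and 4 and 2 under GenX10. Grb10 was at 8.27 in PFOA5 and 7.96 in GenX10 livers, against 6.46 in control livers, where it was dim (at least 1.58-fold and 1.27-fold higher), and Impact, a regulator of protein synthesis under starvation, was higher by at least 1.82-fold and 1.47-fold. Phlda2 and Peg10, both active in the placenta, were lower under GenX2, by 0.38 and 0.77 on the log2 scale, the second dim in exposed liver. Igfbp2, a circulating IGF binding protein, was higher by 0.70 under PFOA5, 0.56 under GenX2 and 0.89 under GenX10. Cd24a was at 8.97 in PFOA5 and 8.46 in GenX10 livers, against 6.25 in control livers (at least 2.56-fold and 1.80-fold higher). Afm fell by 0.61 with PFOA5 and by 0.63 with GenX10. In the let-7 list 4 of 14 genes were higher and 1 lower under PFOA5 and 3 were higher under GenX10, led by Myc in both (0.96 and 0.49).

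Of the mature hepatocyte genes, 4 of 19 were higher and 3 lower under PFOA5, 1 and 0 under GenX2, and 2 and 3 under GenX10. These counts stand beside the same shares of all genes, 19.9%, 3.38% and 13.8%. Cyp7b1, an oxysterol hydroxylase, was dim under PFOA5 and GenX10 and lower by at least 1.45-fold and 1.51-fold. Ttr, a thyroid hormone carrier, was higher by 0.27 with GenX2 and 0.25 with GenX10. No list gene passed under PFOA1.

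In fetal liver no member passed under any exposure. Limma called 0 of the 9 with PFOA1 (0 at an unadjusted p under 0.05), PFOA5 (2), GenX2 (1) or GenX10 (3), where 0.953%, 3.4%, 6.74% and 9.27% of all genes passed. The 95% interval of every difference of Afp, Alb, H19 and Igf2 lay between −0.18 and 0.18. Fetal Alb, Afp and H19 signals were near the top of the range, where differences may be compressed, so narrow intervals there do not show stable levels.

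Among the serum proteins, Afp averaged 12.96 ± 0.06 in PFOA1, 12.96 ± 0.05 in PFOA5, 12.93 ± 0.04 in GenX2 and 12.91 ± 0.08 in GenX10, against 12.98 ± 0.09 in control fetuses (SD). After a repeated quantile normalization Afp was called lower with GenX2 (−0.13, adjusted p = 0.0494, against −0.06 as deposited) and GenX10 (−0.14, adjusted p = 0.0331, against −0.08). H19 averaged 12.67 ± 0.12, 12.68 ± 0.07, 12.71 ± 0.08 and 12.77 ± 0.07 in the same order of exposed groups, against 12.72 ± 0.08 in control fetuses. The exposed and control arrays overlapped in both genes. Igf2 averaged 11.35 ± 0.04, 11.36 ± 0.05, 11.43 ± 0.08 and 11.44 ± 0.03, against 11.36 ± 0.03 in control fetuses, and its difference with GenX10 was 0.08 ± 0.04 (adjusted p = 0.234, and 0.16 with adjusted p = 0.0286 after median centring).

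Dlk1 and Gpc3 came nearest to a call with PFOA5. Dlk1 had 8.76, 9.21 and 9.41 as the lowest, median and highest of 6 PFOA5 livers, against 9.79, 9.47, 9.38, 9.42 and 9.49 in control livers, a difference of −0.37 ± 0.12 (adjusted p = 0.0955). All 6 values were below the control mean and 1 lay within the control range. Gpc3 had 10.32, 10.52 and 10.68 as the lowest, median and highest of the PFOA5 livers, against 10.76, 10.95, 11.00, 10.77 and 10.62 in control livers, a difference of −0.30 ± 0.09 (adjusted p = 0.0569), with all 6 below the control mean and 2 within the control range. It passed without control replicate 5 (−0.35, adjusted p = 0.0306) or PFOA5 replicate 2 (−0.33, adjusted p = 0.0372). Without the 2 arrays whose labels conflict, the differences were −0.33 for Dlk1 (adjusted p = 0.213) and −0.29 for Gpc3 (adjusted p = 0.109).

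Dlk1 was lower on average in all 4 exposed groups, which share their controls. It had 9.24, 9.66, 9.24, 9.37 and 8.85 in PFOA1 (−0.24, adjusted p = 0.675), 9.26, 9.25, 9.05, 9.46 and 9.33 in GenX2 (−0.24, adjusted p = 0.277) and 9.18, 9.26, 9.24 and 9.29 in GenX10 (−0.27, adjusted p = 0.181). All GenX10 values lay below the control range, and control replicate 1 was the highest of the 25 fetal arrays. Gpc3 differed by −0.17 with PFOA1 (adjusted p = 0.695), −0.12 with GenX2 (adjusted p = 0.475) and −0.11 with GenX10 (adjusted p = 0.453).

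The RNA-binding proteins Igf2bp1 and Igf2bp3 averaged higher under GenX without passing. Igf2bp3 had 8.52, 8.65, 8.31 and 8.51 in GenX10 livers, against 8.16, 8.35, 8.27, 8.35 and 8.10 in control livers, a difference of 0.25 ± 0.08 (adjusted p = 0.0595), and 1 of the 4 exposed values lay within the control range. Without that value, GenX10 replicate 3, the difference was 0.31 (adjusted p = 0.0218). Igf2bp1 had 7.93, 7.91, 7.82, 8.38 and 7.97 in GenX2 and 7.94, 8.03, 7.78 and 7.90 in GenX10 livers, against 7.82, 7.69, 7.40, 7.60 and 7.54 in control livers. Its signal differed by 0.39 ± 0.13 with GenX2 (adjusted p = 0.077) and by 0.30 ± 0.14 with GenX10 (adjusted p = 0.165), and it was above background on 4 of 5, 3 of 4 and 0 of 5 arrays of these groups. Lin28b differed by 0.01 to 0.20 in the 4 groups, dim throughout.

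**Figure D4:**
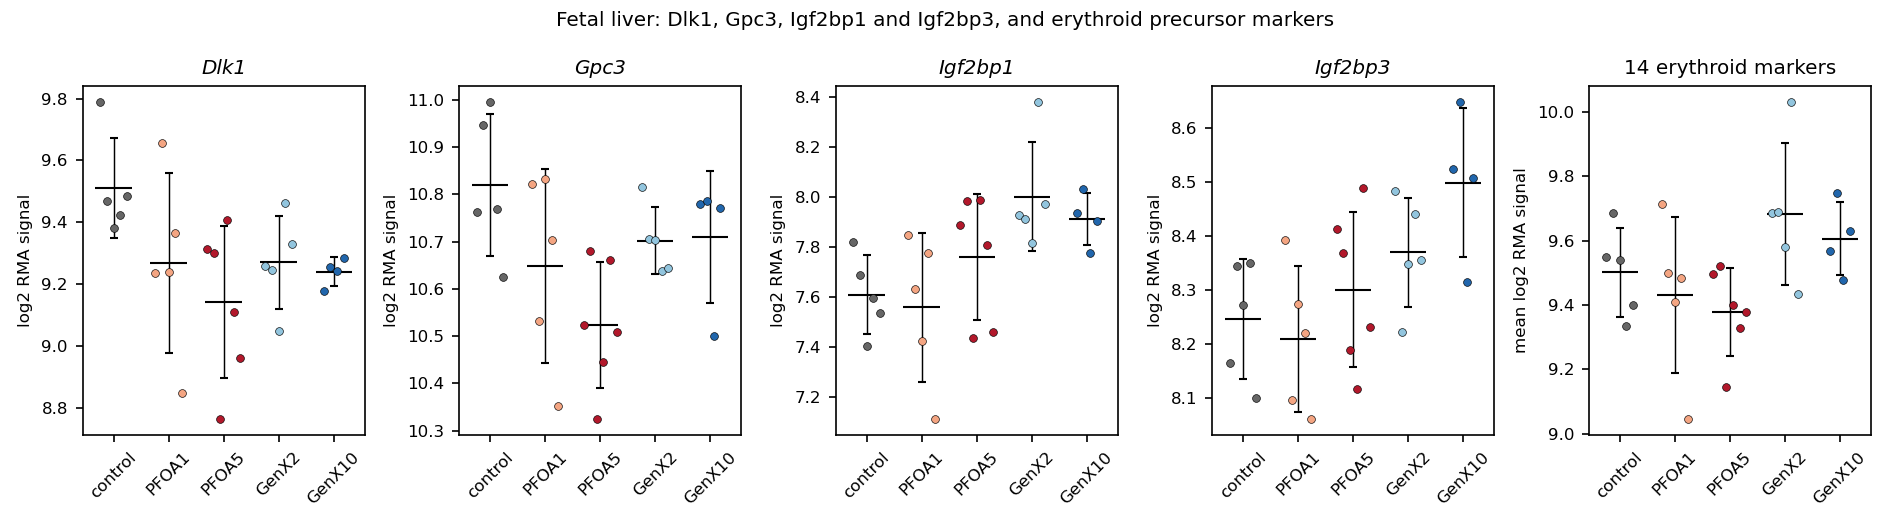
Log2 RMA signal of Dlk1, Gpc3, Igf2bp1 and Igf2bp3 on the fetal arrays by group, with the mean level of 14 erythroid precursor markers at the right and bars for mean ± SD (n = 4 to 6 arrays). Dlk1 and Gpc3 average lowest in PFOA5 livers, and Igf2bp1 is highest on GenX2 replicate 4, at 8.38.

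Levels of erythroid precursor markers varied between fetal livers and ran with several members. The mean level of the 14 erythroid markers was 9.05 to 9.71 in PFOA1, 9.15 to 9.52 in PFOA5, 9.43 to 10.03 in GenX2 and 9.48 to 9.75 in GenX10 livers, against 9.34 to 9.69 in control livers, and 1 of the 14 markers passed, with GenX2 (Slc4a1, 0.24). Over the 25 fetal arrays, with group means removed, the Pearson r with this level was 0.80 for Lin28b, 0.77 for Igf2bp1, 0.65 for Afp, 0.57 for Dlk1 and for Gpc3, and 0.49 for Igf2bp3. It was 0.36 for Alb, 0.08 for H19 and 0.02 for Igf2. The pattern was not particular to erythroid markers. With the proliferation level r was 0.76 for Lin28b, 0.72 for Igf2bp1, 0.62 for Gpc3, 0.61 for Igf2bp3, 0.54 for Afp and 0.53 for Dlk1. It was 0.37 for Alb, 0.10 for H19 and −0.07 for Igf2. With the granulocyte level r ran only from −0.17 for Alb to 0.15 for Afp. With the macrophage level r ran from −0.04 for Dlk1 to 0.51 for H19. With the hepatocyte level r was −0.46 for Dlk1, −0.45 for Lin28b, −0.43 for Igf2bp1 and −0.16 for Igf2bp3. There the other members were positive, up to 0.49 for H19. These points share arrays and normalization, and Lin28b was dim on each of them. With the erythroid level in the fit, 1 member passed, Dlk1 under GenX2 (−0.36, adjusted p = 0.0488).

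Single genes of the related lists did pass in fetal liver, where 0.953%, 3.4%, 6.74% and 9.27% of all genes passed with PFOA1, PFOA5, GenX2 and GenX10. Of 20 imprinted growth genes, 0 passed with PFOA1, 3 were higher and 4 lower with PFOA5, and 4 were higher and 5 lower with GenX2 and with GenX10. Cdkn1c, at 9.49 in PFOA5 and 10.30 in control livers, was lower by 0.81 on the log2 scale, and Impact was higher by 0.60 (at least 1.02-fold). Zim1 was at 9.01 in GenX2 and 9.21 in GenX10 livers, against 8.07 in control livers, and Phlda2 was at 7.48 and 7.33, against 8.37 in control livers.

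Of the IGF list, Igfbp4, which binds IGFs, was lower by 0.27 with PFOA5, 0.32 with GenX2 and 0.30 with GenX10. Trim71 and Dis3l2, both tied to the let-7 axis, passed with PFOA5, GenX2 and GenX10 but were dim in exposed and control livers. Krt18, a keratin of hepatocytes and bile duct cells, was at 9.71 in PFOA1, 10.08 in PFOA5, 10.21 in GenX2 and 10.23 in GenX10 livers, against 9.33 in control livers, and passed in all 4. No gene of the albumin family list passed in any fetal exposure. Among the mature hepatocyte genes, Cyp2e1 was at 6.76 in PFOA5, 5.96 in GenX2 and 5.74 in GenX10 livers, all dim, against 8.92 in control livers (at least 2.21-fold, 2.23-fold and 2.07-fold lower).

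**Figure D5:**
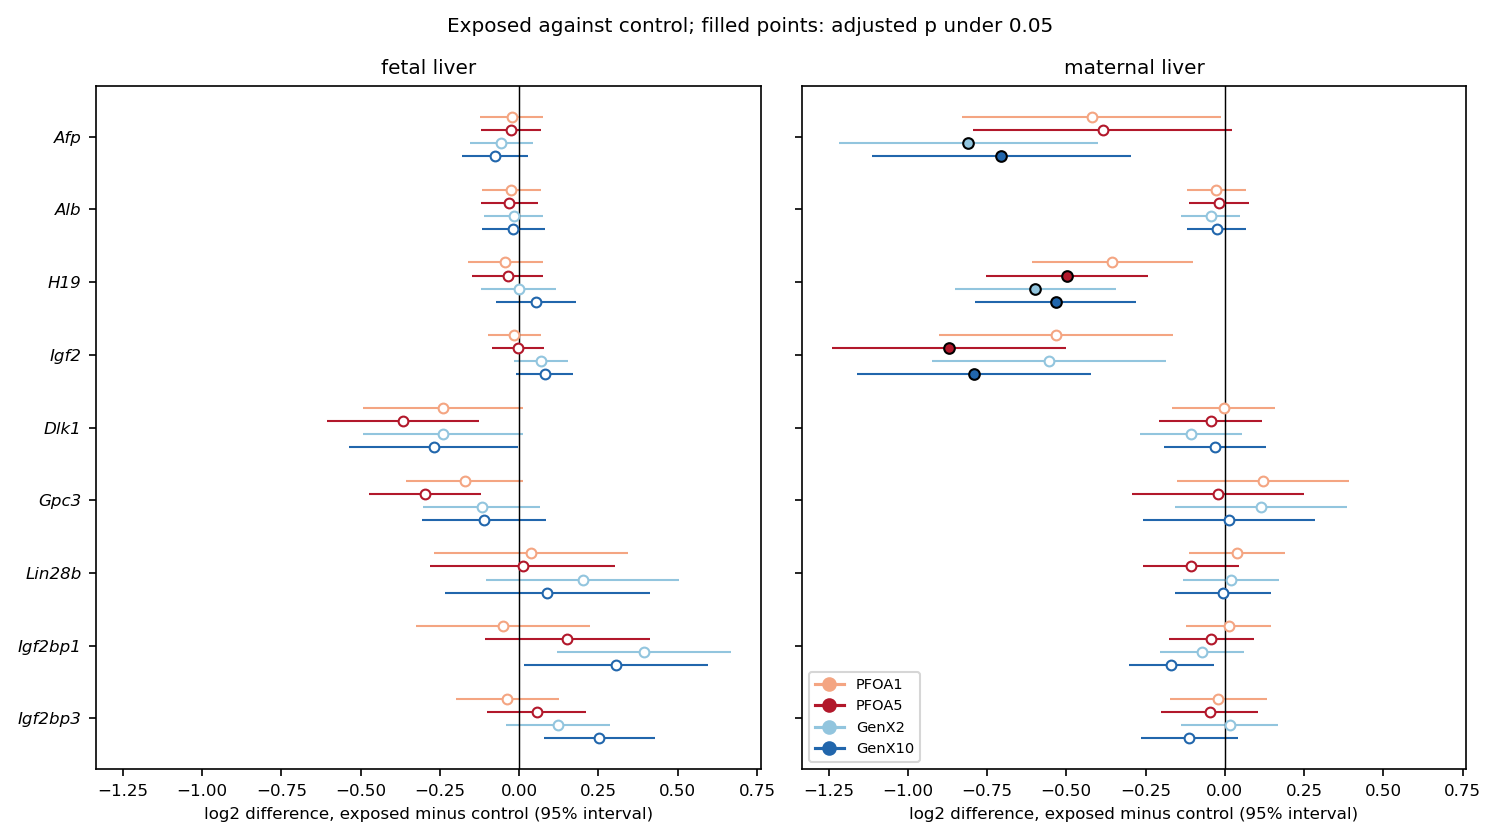
Log2 difference of each exposed group minus its control in fetal liver (left) and maternal liver (right), with points for the limma estimate, filled where the adjusted p was under 0.05, and bars for the 95% interval. The filled points are maternal and left of 0: Afp under GenX2 and GenX10, H19 under PFOA5, GenX2 and GenX10, and Igf2 under PFOA5 and GenX10.

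The difference between the tissues' responses was tested directly, as the fetal effect minus the maternal effect. None of the 9 genes passed for PFOA1 (2 at an unadjusted p under 0.05, 0.178% of all genes called). For PFOA5 2 passed (4.49% of all genes, 1.77% higher), for GenX2 1 (1.31%, 0.625% higher) and for GenX10 2 (2.06%, 0.742% higher), each with the fetal effect above the maternal one. H19 differed by 0.46 ± 0.14 for PFOA5 (adjusted p = 0.0371), 0.60 ± 0.14 for GenX2 (adjusted p = 0.0149) and 0.59 ± 0.14 for GenX10 (adjusted p = 0.0145). Igf2 differed by 0.87 ± 0.19 for PFOA5 (adjusted p = 0.00214) and by 0.87 ± 0.20 for GenX10 (adjusted p = 0.00623). Fetal H19 was near the top of the signal range, where differences may be compressed, and exposed maternal H19 lay close to background. Maternal Igf2 was dim under PFOA5 and GenX10. The contrasts thus set unlike parts of the signal scale against each other, and their sizes are not a measure of unlike responses.

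The H19 difference for PFOA5 lost its call when some single arrays were left out. It was lost in 10 of 21 fits that left out 1 array: maternal control replicate 1 (0.30, adjusted p = 0.0919), maternal PFOA5 replicates 1, 2, 4 and 5 (0.44 to 0.45, adjusted p 0.0586 to 0.0718), fetal control replicates 1, 2 and 5 (0.43 to 0.47, adjusted p 0.0507 to 0.0715) and fetal PFOA5 replicates 3 and 5 (0.46 and 0.44, adjusted p = 0.050 and 0.0613). It was also lost without the 2 arrays of conflicting labels (0.47, adjusted p = 0.0531) and after median centring (0.42, adjusted p = 0.0876). With only the groups compared in the fit, the H19 calls were lost for PFOA5 (adjusted p = 0.128), GenX2 (adjusted p = 0.145) and GenX10 (adjusted p = 0.112), while Igf2bp1 gained one for GenX10 (0.47, adjusted p = 0.0286).

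Other members passed under some alternatives. With dim genes left out, Afp (0.75, adjusted p = 0.0289) and Igf2 (0.62, adjusted p = 0.0498) passed for GenX2, and Igf2bp3 (0.37, adjusted p = 0.0421) for GenX10. That filter used the arrays of both tissues. Afp and Igf2bp3 met it through fetal arrays alone, as both were above background on 0 of 25 maternal arrays. Their maternal effects in these contrasts are thus differences between dim signals. Single arrays mattered too. For GenX2, Afp passed without maternal control replicate 4 (0.92) or maternal GenX2 replicate 5 (0.80), and Igf2 without maternal control replicate 5 (0.75) or maternal GenX2 replicate 2 (0.72), against 0.75 and 0.62 with all arrays. For GenX10, Afp passed without maternal control replicate 4 (0.79, against 0.63), and Igf2bp3 without maternal GenX10 replicate 2 (0.41) or fetal GenX10 replicate 3 (0.43, against 0.37).

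No member passed between the higher and the lower dose of a compound. Under PFOA5 against PFOA1, limma called 0 of 9 in maternal liver (0 at an unadjusted p under 0.05, 18.7% of all genes called) and 0 of 9 in fetal liver (0 at an unadjusted p under 0.05, 0.0486%). Under GenX10 against GenX2 it called 0 of 9 in maternal liver (0 at an unadjusted p under 0.05, 0.24%) and in fetal liver (0 at an unadjusted p under 0.05, 0%). The widest maternal differences were −0.34 ± 0.18 for Igf2 between the PFOA doses (95% interval −0.71 to 0.03) and −0.24 ± 0.18 for Igf2 between the GenX doses (−0.61 to 0.13). In fetal liver Igf2bp1 differed by 0.20 between the PFOA doses (−0.06 to 0.46) and Igf2bp3 by 0.13 between the GenX doses (−0.04 to 0.30).

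The genes most alike in pattern over the 25 fetal arrays were found by Pearson r among 5489 genes above background, for the 8 members above background on most of those arrays. Gpc3 ran with Prdx4 (0.94), Lman1 (0.87) and Alcam (0.85), Igf2bp3 with Tnks (0.94), Mib1 (0.93) and Ddx17 (0.92), and H19 with Rbbp7 (0.90), Gm6382 (0.87) and Pcmtd1 (0.85). Igf2bp1 ran with Eftud2 (0.87), Hnrnpul1 (0.86) and Eif4enif1 (0.86), and Alb with Erp44 (0.84), Itm2b (0.82) and Eif1a (0.82). Igf2 ran with Mfge8 (0.81), Jmjd8 (0.78) and Ctc1 (0.77), Dlk1 with Fkbp11 (0.78), Eef2k (0.76) and Fzr1 (0.75), and Afp with Gm2399 (0.73), Gldc (0.72) and Pter (0.70). No member appears among another member's nearest 3 genes, and H19 and Igf2, neighbours on the chromosome, had different ones. These values describe arrays that share groups and normalization.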

How the data were processed

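RNA from 25 fetal and 25 maternal livers had been hybridised to Affymetrix whole-transcript arrays. The deposited values are log2 signals on which RMA had been run, and mm10 was the build, per the submitters' processing notes. They were used as deposited. Of 32750 annotated probes, 1414 naming several genes were left out, and 832 symbols were updated through RefSeq. The probe with the brightest mean stood for each of the 368 genes with several, leaving 30858 genes. Background was each array's 95th percentile of 5222 negative control features (7.37 to 8.18). A group with all arrays at or below it is called dim, and at-least folds set dim arrays no lower than that level.

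Linear models were fitted with limma 3.58.1 (R 4.3.3), 1 model per tissue for exposures and doses and 1 over all 10 groups for tissue and for the difference of effects, with Benjamini-Hochberg adjustment over all genes and a threshold of 0.05. The number of arrays limits the precision. The steps were tested on simulated data. Members, lists and the genes named were chosen with earlier results of these data known. From each list the 3 genes of lowest adjusted p between the control tissues and up to 2 called genes per exposure could be named, and Mki67 was chosen after its values were seen. Replicate numbers were not used as pairs, since no comparison had every same-numbered pair correlated above 0.1. Alternatives were moderated trend, dim genes left out, other scaling, probe averaging, array weights, a replicate block, single arrays left out, the conflicting labels, low Xist arrays and an erythroid covariate.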

Additional observations from a re-analysis of the deposited data

Results flagged for a closer look

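Of 90 sets of arrays (9 genes in 10 groups), 7 held an array standing apart from its group beyond Dixon's 95% value, where chance flags about 1 set in 20. The 3 low ones were Afp on fetal PFOA1 replicate 5 (12.86, others 12.96 to 13.00), Alb on maternal GenX10 replicate 2 (13.32, others 13.45 to 13.46) and Gpc3 on fetal GenX10 replicate 3 (10.50, others 10.77 to 10.79). The 4 high ones were H19 on maternal PFOA5 replicate 3 (7.85, others 7.54 to 7.58) and maternal control replicate 1 (8.76, others 7.84 to 8.10), Dlk1 on fetal control replicate 1 (9.79, others 9.38 to 9.49) and Igf2bp1 on fetal GenX2 replicate 4 (8.38, others 7.82 to 7.97).

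The measured effect of an exposure differed between fetal and maternal liver in 5 of 36 tests of the difference itself. These were H19 under PFOA5 (0.46, fetal minus maternal log2 effect), GenX2 (0.60) and GenX10 (0.59), and Igf2 under PFOA5 (0.87) and GenX10 (0.87). The limits given above apply, with fetal H19 near the top of the range and exposed maternal signals close to or below background.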

How the results depend on the processing

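Of 21 called differences, 212 of 221 fits under other settings kept the call and direction and 9 lost the call, as did 15 of 260 fits without 1 array. None of the differences was reversed. Of the 21, 9 were differences between the control tissues, most of them large, so the tally says less about the exposure calls. Each member had 1 probe, so probe averaging left its values unchanged. Genes dropped by leaving out dim genes, such as Afp in maternal fits and Lin28b between tissues, were counted neither as kept nor as lost. Of the 132 not called, 17 of 1358 and 14 of 1630 fits gained one. With only the groups compared in the fit, maternal GenX2 went to 0 called members from 2, the GenX2 tissue difference to 0 from 1 and the PFOA5 tissue difference to 1 from 2. The PFOA5 tissue difference was also 1 after median centring and without the 2 arrays of conflicting labels. With dim genes left out, fetal PFOA5 had 2 called members (Dlk1 and Gpc3), fetal GenX2 1 (Igf2bp1), fetal GenX10 1 (Igf2bp3) and the GenX2 tissue difference 3. Afp, among these 3, was kept through its fetal arrays alone. For fetal GenX2, Igf2bp1 was kept through exposed fetal arrays alone, as it was above background on 0 of 5 fetal controls. Repeated quantile normalization gave 2 (Dlk1 and Gpc3), 1 (Afp) and 1 (Afp) in fetal PFOA5, GenX2 and GenX10. Array weights gave 1 in fetal PFOA5, median centring 1 in fetal GenX10 and the erythroid covariate 1 in fetal GenX2. The replicate block gave 1 in fetal GenX2 (Igf2bp1), and changed no other count of members by over 1.5 times. The cause of these changes was not tested.

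Without 1 array at a time, the called members numbered 0 to 0 for maternal and fetal PFOA1, fetal GenX2, the 4 dose contrasts and the PFOA1 tissue difference, 2 to 3 for maternal PFOA5 and GenX10, 1 to 2 for maternal GenX2, 0 to 1 for fetal PFOA5 and GenX10, 9 to 9 for the tissues, 1 to 2 for the PFOA5 and GenX2 tissue differences and 2 to 3 for GenX10. Over all genes, the count called ranged over the settings from 3529 to 9669 for maternal PFOA5 (6132 in the main model), from 600 to 2641 for maternal GenX2 (1043) and from 6074 to 20305 for the tissues (19196). Dim signals limit Lin28b, Igf2bp1 and most maternal values.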
